A study of Mus musculus with 12 samples.

Results

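The NRF2 antioxidant enzymes described here are 10 genes, Hmox1, Nqo1, Gclc, Gclm, Txnrd1, Srxn1, Me1, Gsr, G6pdx and Osgin1, taken by symbol from the fetal liver values (23235 genes) and from the fibroblast values (24421 genes) of 1 mouse study. All 10 were found in both and all 10 passed the filter on low values in both. The liver samples were E12.5 fetal livers, 3 wild type (WT) and 3 homozygous for the G2A allele of Rpt2 (written Rpt2G2A/G2A in the labels), which the labels call 3 littermate pairs. The fibroblast samples were immortalized mouse embryonic fibroblasts (MEFs) of the same genotypes, of which 3 WT and 2 G2A libraries were analysed here. No sample was treated. The labels do not say whether the MEF libraries came from separate lines or cultures, so the p-values measure only the spread between these samples.

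Rpt2, encoded by Psmc1, is an ATPase of the proteasome base, and G2A replaces the glycine that carries its N-myristoyl lipid anchor. As background, NRF2 (gene Nfe2l2) is a transcription factor that unstressed cells keep low: KEAP1 and the ligase scaffold CUL3 mark it with ubiquitin and the proteasome degrades it. Oxidants and electrophiles modify KEAP1, after which NRF2 accumulates, pairs with small MAF proteins and binds antioxidant response elements near genes for glutathione synthesis, thioredoxin and peroxiredoxin recycling, NADPH supply and quinone and heme breakdown. BACH1, a repressor released from DNA by heme, competes for the same elements. In the fetal liver, the site of red cell formation at this age, these enzymes serve both hepatoblasts and red cell precursors, which handle much heme and iron.

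The libraries did not all group by genotype. The liver values are FPKM (fragments scaled to transcript length and library total), so their read depth is unknown, and the MEF values are reads divided by a size factor, from 36415586 to 37695116 gene reads per library. On the first principal component of the livers, the scores were 30.6 and 34.9 for G2A livers 1 and 2 and -13.3 to -23.3 for WT, with G2A liver 3 next to WT at -7.91. On that of the MEFs (73.4% of the variance), WT 1 and 2 lay at -87.2 and -92.0 and WT 3 at 72.5, on the side of G2A 1 and 2 (51.5 and 55.2). Psmc1 ranged from 178 to 181 FPKM in WT liver and from 145 to 161 in G2A liver, and from 6485 to 8589 and from 10658 to 10913 normalized reads in WT and G2A MEFs. These levels do not show the base change itself. In the livers the 9 matched erythroid markers and all 10 hepatoblast markers were detected. In the MEFs 9 of 10 fibroblast markers passed the filter, while Hbb-b1 and Hba-a1 were listed at 0. Albumin (Alb) was listed at 305 and 330 reads in WT 1 and 2 and at 275 in G2A 1, and at 0 in WT 3 and G2A 2. Dlk1, a marker fixed for hepatoblasts, was at 32015 in MEF WT 3 against 210 to 7643 in the other libraries.

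The promoters of the members show how far they share the NRF2 element in their proximal sequence. Windows of the 250 bases before a transcription start, from RefSeq on GRCm38.p6, matched 7 of the 10 members with 10 windows, and Hmox1, Gclc and Gsr had no entry. The element was searched on both strands as TGACNNNGC and as the NRF2 and MAF form TGANTCAGC, which overlap where the N of the second is C. The first was found in 3 of the 10 windows (10.2% of all 32851 windows hold it) and the second in 2 (1.02% of all). Shown are the windows of Srxn1 and Osgin1, which hold TGANTCAGC, and of G6pdx, which holds TGACNNNGC. Also shown is a window of Me1, which holds neither motif in either of its windows. Me1 had the largest fold change of the 10 members in liver, and a link between these motifs and the fold changes was not tested. Each window is written 5′ to 3′ on the strand of the gene, with a match to either motif in capitals.
Srxn1 (chr2:152105274-152105523, plus strand): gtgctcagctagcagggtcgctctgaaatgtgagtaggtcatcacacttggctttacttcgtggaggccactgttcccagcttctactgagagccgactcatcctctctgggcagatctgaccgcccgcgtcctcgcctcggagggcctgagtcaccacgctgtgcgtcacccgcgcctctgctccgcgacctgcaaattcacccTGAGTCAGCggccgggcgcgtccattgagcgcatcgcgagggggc
Osgin1 (chr8:119436897-119437146, plus strand): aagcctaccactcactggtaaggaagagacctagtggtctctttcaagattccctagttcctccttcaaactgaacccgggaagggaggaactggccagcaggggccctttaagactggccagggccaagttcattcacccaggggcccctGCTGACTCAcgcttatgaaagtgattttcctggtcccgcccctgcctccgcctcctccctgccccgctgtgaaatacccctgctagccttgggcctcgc
G6pdx (chrX:74428881-74429130, minus strand): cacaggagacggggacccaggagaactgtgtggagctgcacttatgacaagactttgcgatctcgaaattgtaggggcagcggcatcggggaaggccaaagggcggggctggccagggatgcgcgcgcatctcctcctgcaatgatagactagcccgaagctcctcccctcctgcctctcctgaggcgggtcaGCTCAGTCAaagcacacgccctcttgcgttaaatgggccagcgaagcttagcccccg
Me1 (chr9:86695915-86696164, minus strand): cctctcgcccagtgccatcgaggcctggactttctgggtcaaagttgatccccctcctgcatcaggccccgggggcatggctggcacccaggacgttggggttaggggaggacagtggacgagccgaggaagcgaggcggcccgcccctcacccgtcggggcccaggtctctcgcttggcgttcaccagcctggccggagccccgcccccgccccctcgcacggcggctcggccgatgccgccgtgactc
The first printed base of the match was 45 bases before the start in Srxn1, 99 in Osgin1 and 57 in G6pdx, and the last 2 matches were on the opposite strand. The windows of Gclm and of 1 Txnrd1 start held TGACNNNGC, and that of Nqo1 held neither motif. A match describes these letters and is not a bound site. A window without a match does not show that the gene lacks the element, because sequence outside the 250 bases was not searched.

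Fetal liver compared WT with G2A embryos. The main test did not use the littermate pairing, because the labels do not say that equal numbers mark a pair. Of the 10 enzymes, Hmox1, Me1 and Osgin1 lay higher in all 3 G2A livers than in any WT liver, and Nqo1 lay lower in all 3. The other 6 had overlapping groups, and in each of them G2A livers 1 and 2 lay below every WT liver while G2A liver 3 did not. None of the 10 passed limma's test over all genes (adjusted p under 0.05), which 3 of 12938 genes passed (0.0232%, with 0.0155% higher and 0.00773% lower). At an unadjusted p under 0.05, 3 members were higher and 2 lower (9.07% and 12.4% of all genes). Groups did not overlap, with G2A higher, for 3 members (11.8% of all genes) and, with G2A lower, for 1 (15.7%). The median log2 fold change of the 10 was -0.11, beside 0.01 over all genes tested.

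Me1 is the cytosolic malic enzyme, which makes NADPH from malate. Its protein-coding gene spans 86474970 to 86589947 of chromosome 9, minus strand (build NCBIM37, or mm9). Me1 was at 5.41, 3.88 and 5.99 FPKM in WT livers 1 to 3 and at 16.7, 18.7 and 13.4 in G2A livers 1 to 3. Every G2A liver lay above every WT liver, by 3.20-fold between the means (5.09 ± 1.09 and 16.3 ± 2.69, SD, n = 3 each). On the log2(FPKM + 1) scale the fold change was 1.51 (SE 0.17, 95% interval 1.09 to 1.93, limma adjusted p = 0.0811). A330041J22Rik, a gene annotated over Me1 exons on the other strand, stayed between 0 and 0.178 FPKM in the livers.

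Hmox1, heme oxygenase, opens the heme ring and releases iron (plus strand of chromosome 8, 77617490 to 77624495 in NCBIM37). The 3 WT livers held it at 115, 112 and 108 FPKM, the 3 G2A livers at 185, 164 and 165. The groups were far apart relative to their spread, with a log2 fold change of 0.61 (SE 0.07, 95% interval 0.45 to 0.77, adjusted p = 0.0811). Osgin1, an oxidative stress induced growth inhibitor (plus strand of chromosome 8, 121958024 to 121970156), had 8.24, 10.3 and 9.51 FPKM in WT livers against 13.3, 16.4 and 17.0 with G2A. Again no G2A liver reached down to the WT values, and the log2 fold change was 0.68 (SE 0.12, adjusted p = 0.0902). In these genes G2A liver 3 lay with the other G2A livers: it was the lowest for Me1, between the others for Hmox1 and the highest for Osgin1.

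Nqo1, which reduces quinones to hydroquinones, is on the minus strand of chromosome 8 (109912125 to 109927106). WT livers held 14.6, 12.1 and 12.7 FPKM of it, and G2A livers 9.75, 7.62 and 11.3. All G2A livers lay below all WT livers, with G2A liver 3 closest to them (log2 fold change -0.43, SE 0.15, adjusted p = 0.171). G6pdx, the enzyme that commits glucose 6-phosphate to the pentose phosphate pathway and yields NADPH, is X-linked (minus strand, 71654822 to 71674533). WT livers 1 to 3 had 50.5, 46.9 and 51.1 FPKM, against 35.0, 34.2 and 47.5 for G2A livers 1 to 3. G2A liver 3 fell inside the WT range, and the log2 fold change over all livers was -0.35 (SE 0.13, adjusted p = 0.195). Ikbkg overlaps G6pdx exons on the opposite strand and had a log2 fold change of 0.01, and the near-identical retrocopy G6pd2 was at 0 to 0.0396 FPKM. Because no source states that strand was used in counting, reads of G6pdx and Ikbkg, of Me1 and its partner, and of Gclm and an antisense lincRNA over it cannot be told apart where they overlap.

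**Figure D1:**
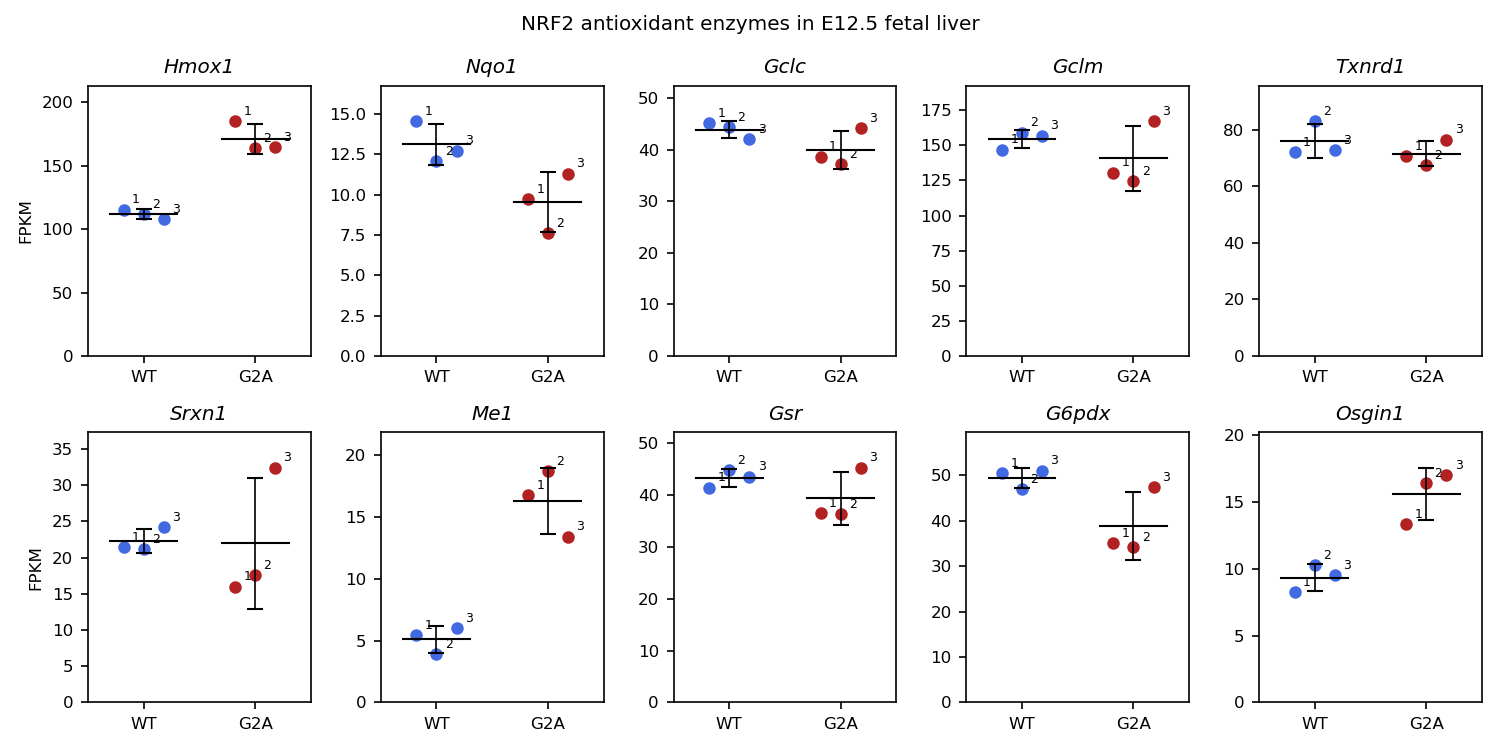
FPKM of the 10 enzymes in each E12.5 fetal liver (y axes start at 0), WT in blue and G2A in red, numbered by liver, with the mean as a line and the SD as a bar (n = 3 each). Hmox1, Me1 and Osgin1 have all G2A livers above all WT livers, and Nqo1 has them all below.

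The glutathione genes had small differences. Gclc and Gclm encode the catalytic and modifier subunits of glutamate-cysteine ligase, the rate-limiting step of glutathione synthesis, and Gsr, glutathione reductase, recycles the oxidized form. Gclc was at 45.3, 44.4 and 42.0 FPKM in WT and 38.7, 37.3 and 44.2 in G2A livers. Gclm was at 147, 159 and 157 in WT and 131, 125 and 167 in G2A livers, so that G2A liver 3 was the highest of all 6. Gsr followed the same order, at 41.5, 44.9 and 43.6 in WT and 36.5, 36.4 and 45.3 in G2A livers. The log2 fold changes of Gclc, Gclm and Gsr over all livers were -0.13, -0.14 and -0.14, with intervals that included 0 (adjusted p = 0.368, 0.499 and 0.433).

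Srxn1, sulfiredoxin, restores overoxidized peroxiredoxins, and Txnrd1, cytosolic thioredoxin reductase, keeps thioredoxin reduced. Srxn1 had the widest spread among the G2A livers. Its values were 21.4, 21.2 and 24.2 FPKM in WT and 16.0, 17.6 and 32.4 in G2A livers 1 to 3, with the lowest and the highest of all 6 both in G2A. Its log2 fold change was -0.08 over all livers (95% interval -0.70 to 0.53, adjusted p = 0.869), and its sign turned without G2A liver 1 (0.10) or G2A liver 2 (0.04). Txnrd1 was at 72.0, 83.0 and 72.8 in WT and 70.5, 67.6 and 76.4 in G2A livers (log2 fold change -0.08, adjusted p = 0.556). After quantile normalization its value was 0.01.

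Without G2A liver 3, 9 of the 10 members passed limma's test, 3 higher and 6 lower, while 24.4% of all genes passed (12.4% higher and 12% lower). The higher ones were Me1 (log2 fold change 1.63, adjusted p = 0.00992), Hmox1 (0.64, adjusted p = 0.00992) and Osgin1 (0.62, adjusted p = 0.0236). The lower ones were Nqo1 (-0.55), G6pdx (-0.50), Srxn1 (-0.39), Gclm (-0.27), Gsr (-0.24) and Gclc (-0.20), with adjusted p from 0.0101 to 0.0495. Txnrd1 did not pass (-0.13, adjusted p = 0.234). Leaving out any other single liver gave 0 members past the test. With library weights, which lower the part of a deviating library, 9 members were called, beside 46.8% of all genes. G2A livers 1 and 2 both lay below every WT liver for 7 members, as they did for 27.3% of all genes, and for 6 of these G2A liver 3 did not (11.6% of all genes).

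**Figure D2:**
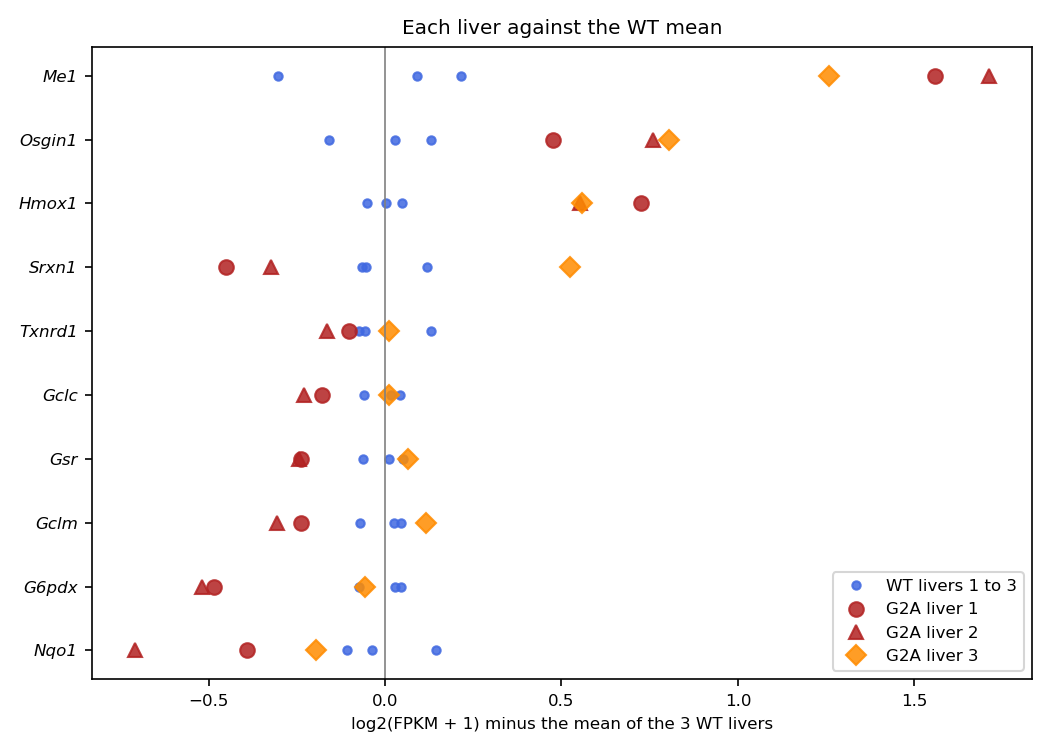
Log2(FPKM + 1) of each liver minus the mean of the 3 WT livers (x axis) for the 10 enzymes (y axis), with WT livers as blue dots and each G2A liver as its own symbol. G2A liver 3 (orange diamonds) sits with the other G2A livers for Hmox1, Me1 and Osgin1 and at or above the WT livers for Srxn1, Gsr and Gclm, where G2A livers 1 and 2 lie below them.

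Markers of several cell types moved with these livers. The summed FPKM of the 9 matched erythroid markers ranged from 2253 to 3190 among WT livers, against 1758, 1508 and 2908 for G2A livers 1, 2 and 3, the same split as for the 6 enzymes, and all 9 markers had a log2 fold change below 0 (0 called). The 10 fibroblast markers summed to between 707 and 937 in WT livers and to 1778, 2449 and 1293 in G2A livers 1 to 3, with 9 of 10 above 0 and 0 called. The hepatoblast sum ranged from 11132 to 13790 for WT, with 11307, 11058 and 15884 for G2A. No marker of these lists was at 0 in every liver, and their part in the enzyme values was not tested. In bulk tissue fewer cells of a type and less RNA per cell cannot be told apart. The 8 endothelial markers summed to 106 to 117 in WT and to 127, 130 and 123 in G2A livers, with 7 of 8 above 0. Of these only Pecam1, Kdr and Tek singly had every G2A liver above every WT liver. The 4 epithelial markers summed to 133 to 149 in WT and to 213, 357 and 150 in G2A livers, with 4 of 4 above 0. The fibroblast, endothelial and epithelial sums thus all lay higher in every G2A liver, as Hmox1, Me1 and Osgin1 did. For the epithelial sum G2A liver 3 was barely above WT. Macrophages also make Hmox1, and their 10 matched markers summed to 175 to 226 in WT and to 208, 189 and 198 in G2A livers. Of the 9 tested, 4 lay above 0 and 5 below, the latter being Emr1, C1qa, C1qb, C1qc and Marco, all with overlapping groups. Cd68 (at most 15.2 FPKM in WT and at least 16.1 in G2A) and Mrc1 (at most 10.9 and at least 11.5) were higher in every G2A liver than in any WT liver. The same held for 11.8% of all genes. None of the endothelial, epithelial or macrophage markers was called, and their part in the enzyme values was not tested either.

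MEFs compared WT with G2A fibroblasts. Nqo1, Me1, G6pdx and Srxn1 lay higher in both G2A libraries than in any WT library, and no member lay lower in both. None of the 10 passed limma's test, and 0 of 13241 genes passed it (0%). At an unadjusted p under 0.05, 2 members were higher, Nqo1 and Me1 (6.9% of all genes), and 0 lower (7.48%). Groups without overlap held 4 members with G2A higher (18.9% of all genes) and 0 with G2A lower (18%). By edgeR's quasi-likelihood test on the reads recovered from these values 0 members passed (0% of genes), and by DESeq2 2 passed, Nqo1 and Me1, both higher (7.72% of genes, with 2.92% higher and 4.8% lower). The median log2 fold change of the 10 was 0.20, beside 0.01 over all genes tested.

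Nqo1 was at 989, 918 and 788 normalized reads in MEF WT 1 to 3 and at 1388 and 1781 in G2A 1 and 2. Both G2A libraries lay above all WT libraries, by 1.76-fold between the means (log2 fold change 0.81, SE 0.18, 95% interval 0.37 to 1.26, limma adjusted p = 0.269, DESeq2 adjusted p = 0.00358). Me1 was at 6463, 6695 and 5845 in WT and at 8781 and 8172 in G2A. The 2 groups were again apart, by less than in liver (log2 fold change 0.42, SE 0.11, limma adjusted p = 0.279, DESeq2 adjusted p = 0.007). The NADPH source G6pdx was at 3412, 4295 and 2347 in WT and 5268 and 4794 in G2A, where WT 3 was the lowest library (log2 fold change 0.63, SE 0.26, limma adjusted p = 0.363). Srxn1 was at 3484, 3799 and 2856 in WT and 4044 and 4096 in G2A (0.28, adjusted p = 0.438).

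For the other 6 enzymes the WT and G2A libraries overlapped. Hmox1, which lay higher in every G2A liver, was at 4317, 4865 and 5628 in WT MEFs and at 4912 and 3674 in G2A MEFs. Its log2 fold change was -0.21 (95% interval -0.67 to 0.25) and came to 0.00 without G2A 2. Osgin1 was at 586, 373 and 364 in WT and 411 and 385 in G2A, so that WT 1 alone stood high, and its value of -0.11 turned to 0.11 without that library. Gclc, Gclm and Gsr had log2 fold changes of -0.12, 0.35 and 0.13, each with an interval that included 0. Txnrd1 was at 18957, 21427 and 11995 in WT and 14984 and 15246 in G2A, with WT 3 below and WT 1 and 2 above both G2A libraries.

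**Figure D3:**
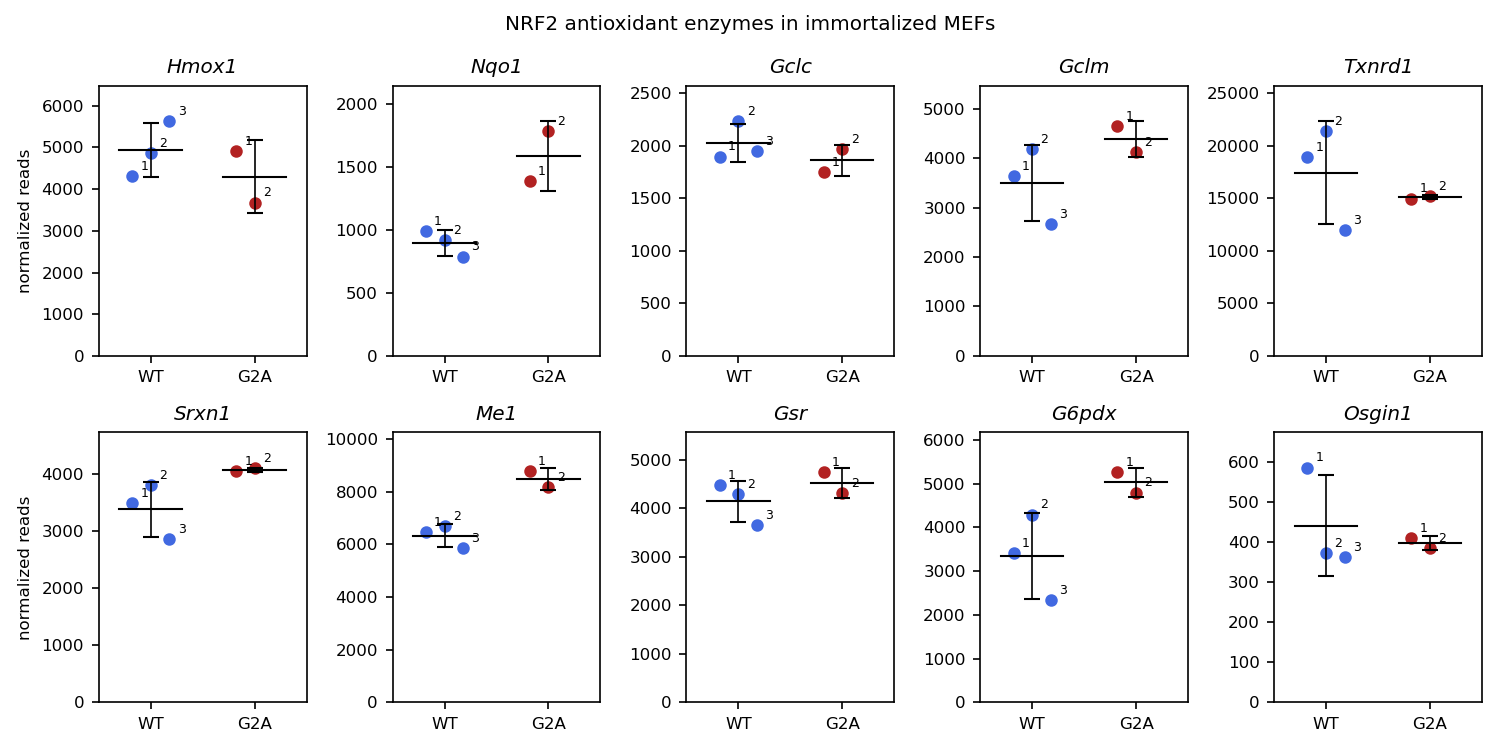
Normalized reads of the 10 enzymes in each MEF library (y axes start at 0), WT in blue (n = 3) and G2A in red (n = 2), numbered by library, with the mean as a line and the SD as a bar. Nqo1, Me1, G6pdx and Srxn1 have both G2A libraries above all WT libraries, and WT 3 is the lowest library for Txnrd1, Gclm and G6pdx.

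MEF WT 3 was the lowest WT library for 8 members, the exceptions being Hmox1, where it was the highest, and Gclc. Its normalized reads over all genes also summed lowest, to 34223247 against 38822010 and 39349788 in WT 1 and 2. How many of all genes had WT 3 lowest was not computed. Without WT 3, limma called 3 members, beside 23.2% of all genes (11.7% higher and 11.5% lower): Nqo1 (log2 fold change 0.72, adjusted p = 0.0239) and Me1 (0.37, adjusted p = 0.0338) higher and Txnrd1 (-0.42, adjusted p = 0.0363) lower. Txnrd1 came to 0.00 without WT 2. No member was called without any other single library, and 5 were with library weights (46.3% of all genes). The 10 fibroblast markers summed to 1226400, 1006800 and 652010 normalized reads in WT 1 to 3 and to 477280 and 472830 in G2A, with 6 of 9 tested below 0 and 0 called. The 4 epithelial markers summed to 51.5, 65.8 and 220 in WT and to 221 and 239 in G2A MEFs, with 3 of 4 above 0 and 0 called. Among them Krt18 was at 0, 3.13 and 25.4 in WT and 169 and 204 in G2A. Cdh1 went the other way, at 42.2, 43.8 and 172 in WT 1 to 3 and 15.8 and 15.7 in G2A. The sum of WT 3 was thus mostly Cdh1, and the G2A sums were mostly Krt18. The part of the fibroblast and epithelial markers in the enzyme values was not tested.

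The order of the enzymes differed between the tissues. In WT liver, by FPKM, Gclm stood highest at 154 ± 6.50, followed by Hmox1 at 112 ± 3.90, Txnrd1 at 75.9 and G6pdx at 49.5. Gclc at 43.9 and Gsr at 43.3 overlapped, and they were followed by Srxn1 at 22.3, Nqo1 at 13.1, Osgin1 at 9.35 and Me1 at 5.09, with no other neighbours overlapping. In WT MEFs the levels were divided by the exon length of each gene in an NCBIM37 annotation, which may not be the one the authors used. Txnrd1 then stood highest at 4344 ± 1217 normalized reads per kilobase, with Hmox1 at 2284 and Me1 at 1771 next, and Osgin1 was last at 165. From Gsr (1504) through Srxn1 (1198), G6pdx (1088) and Gclm (681) to Gclc (593) and Nqo1 (579), each neighbour overlapped the next. Me1 was thus last of the 10 in WT liver and the third in WT MEFs, while Gclm went from the top place to the seventh. The liver and MEF values have different units and were made separately, so tissue and processing cannot be told apart in these ranks.

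The effect of G2A was set side by side in the 2 tissues for each gene, as the difference of their log2 fold changes, with no library shared. Of the members, 2 of 10 passed, Nqo1 and Me1, beside 2.21% of 10818 genes (1.34% higher in liver and 0.869% lower). Nqo1 lay lower in G2A liver and higher in G2A MEFs (difference, liver minus MEF, -1.24, SE 0.23, 95% interval -1.75 to -0.74, adjusted p = 0.035). Me1 lay higher in both, and more so in liver (1.09, SE 0.21, 95% interval 0.63 to 1.55, adjusted p = 0.0361). G6pdx (-0.98, adjusted p = 0.104), Hmox1 (0.82, adjusted p = 0.076) and Osgin1 (0.79, adjusted p = 0.166) had opposite signs in the tissues without passing. For Gclc the difference was -0.01 (95% interval -0.35 to 0.33) and for Txnrd1 0.08 (-0.60 to 0.76). Both calls were lost without liver WT 2, WT 3, G2A 1 or G2A 2, or MEF WT 1, G2A 1 or G2A 2, and that of Me1 also without liver WT 1. Over these omissions the values were -1.42 to -1.06 for Nqo1 and 0.94 to 1.20 for Me1, with adjusted p up to 0.496. Without liver G2A 3 the test called 4 members (8.76% of all genes), with Hmox1 and Srxn1 added to these 2. Without MEF WT 3 it called 5 (30.1% of all genes), with Hmox1, G6pdx and Osgin1 added.

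**Figure D4:**
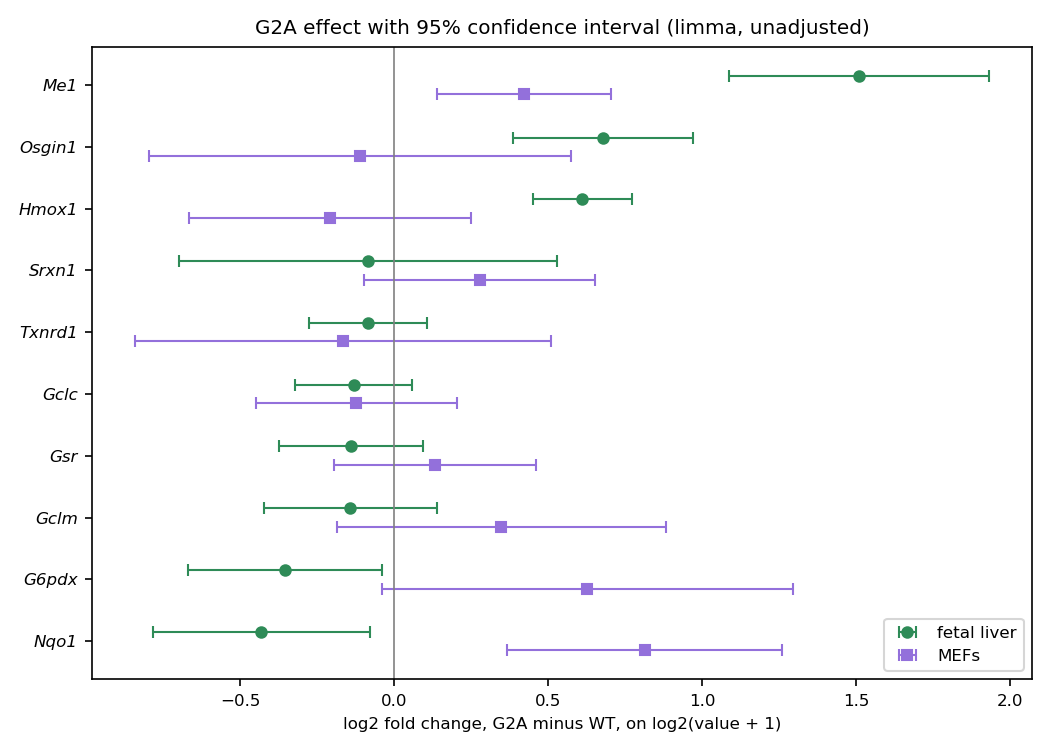
Log2 fold change, G2A minus WT, on the log2(value + 1) scale (x axis) for the 10 enzymes (y axis) in fetal liver (green circles, 3 against 3) and MEFs (purple squares, 2 against 3), with unadjusted 95% confidence intervals from limma. Me1 lies to the right of 0 in both tissues, and Nqo1 lies on opposite sides.

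The regulators of the pathway were measured by the same fits, and 0 of 8 passed limma's test in either tissue. At an unadjusted p under 0.05, 3 were higher and 0 lower in G2A liver (9.07% and 12.4% of all genes), and 0 higher and 1 lower in G2A MEFs (6.9% and 7.48%). Nfe2l2 itself was at 46.2, 48.6 and 48.1 FPKM in WT and 42.0, 42.8 and 49.1 in G2A livers (log2 fold change -0.10, adjusted p = 0.479). In MEFs it was at 5751, 4666 and 4633 reads in WT and 3848 and 3670 in G2A, below every WT library (-0.41, adjusted p = 0.31). Keap1 and Cul3 had log2 fold changes of -0.03 and -0.07 in liver and 0.16 and 0.14 in MEFs. In liver 3 regulators had all G2A livers above all WT livers, as did 11.8% of all genes. Sqstm1, the autophagy receptor p62 that binds KEAP1, was at 77.8, 72.5 and 84.5 FPKM in WT and 99.1, 118 and 101 in G2A livers (0.43, adjusted p = 0.101). Maff, a small MAF partner, was at 4.48, 4.49 and 4.18 in WT and 5.96, 6.07 and 6.11 in G2A livers (0.39, adjusted p = 0.095). Bach1, the repressor, was at 12.6 and 14.4 on average (0.18, adjusted p = 0.205). In MEFs Sqstm1, Maff and Bach1 had values of -0.06, 0.17 and -0.48. There the groups did not overlap for 1 regulator with G2A higher, Keap1 (18.9% of all genes). They did not overlap for 2 with G2A lower, Nfe2l2 and Bach1 (18% of all genes). Mafk had a log2 fold change of -0.38 in liver, where the WT livers ranged from 26.4 to 32.0 FPKM and G2A livers 1 to 3 had 19.4, 17.8 and 31.2. Mafk was at -0.18 in MEFs, and Mafg at -0.08 in liver and 0.16 in MEFs.

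A list of 41 further target enzymes and transporters had 33 tested members in each tissue, and 0 passed limma in either. In liver 11 lay above 0 and 22 below (median log2 fold change -0.07), and in MEFs 25 above and 8 below (median 0.22), beside 0.01 over all genes in each tissue. At an unadjusted p under 0.05, 1 was higher and 5 lower in liver (9.07% and 12.4% of all genes), and 4 higher and 1 lower in MEFs (6.9% and 7.48%). Those with the smallest p in liver were Blvra, biliverdin reductase, which acts on the product of Hmox1 (34.0 and 25.5 FPKM, -0.41), the superoxide dismutase Sod1 (616 and 535, -0.21) and the glutathione synthetase Gss (37.6 and 26.1, -0.52). On the other side stood Ugdh, which makes UDP-glucuronate (21.7 and 32.3, 0.53), and the export pumps Abcc1 (0.23) and Abcc2 (0.36). Adjusted p for these 6 lay between 0.134 and 0.246. Without G2A liver 3, 3 of the 41 tested regulators and further targets were called higher and 11 lower, beside 12.4% and 12% of all genes.

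In MEFs the list members with the smallest p above 0 were Sod1 (6813 and 10186 normalized reads, log2 fold change 0.58), the aldo-keto reductase Akr1b8 (517 and 2316, 2.38) and the peroxiredoxin Prdx6 (4731 and 7480, 0.68). Akr1b8 was at 212, 489 and 851 in WT and 2267 and 2365 in G2A MEFs, the largest value of the 3. Below 0 were the epoxide hydrolase Ephx1 (3380 and 1938, -0.80), the glutathione transferase Gstm1 (-0.31) and Idh1 (-0.23), the last 2 with overlapping groups. The smallest adjusted p among these 6 was 0.269. DESeq2 called 4 of the 41 regulators and further targets higher and 1 lower (2.92% and 4.8% of all genes), and edgeR 0. Without MEF WT 3, 9 of the 41 were called higher and 2 lower, beside 11.7% and 11.5% of all genes. Reads of close relatives such as the Gstm and Akr1b genes may be shared between them. The difference between the tissues passed for Sod1 (liver minus MEF -0.79, adjusted p = 0.0337) and Ephx1 (1.02, adjusted p = 0.0382). Both calls were lost without liver G2A 2, MEF WT 1 or either MEF G2A library, and that of Ephx1 also without liver WT 1, WT 2, WT 3 or G2A 1 (adjusted p up to 0.566 for Sod1 and 0.495 for Ephx1).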

How the data were processed

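Trizol-extracted total RNA was sequenced, and reads shortened to 50 bp went through TopHat 2.1.1 on mm9, per the labels' protocols. TopHat2 2.1.1, Cufflinks 2.2.1 and the builds mm9 and mm10 stand in the submitters' processing notes. The authors deposited FPKM for liver and a normalized signal for MEFs. The unit of the liver values was read from the named tool and the values. Multiplied by its library's size factor, each deposited MEF value gave a whole read number (100% within 0.01). Annotation, counting tool and strand use: not given in the sources used here.

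limma 3.58.1 (R 4.3.3, variance trend) compared the genotypes within a tissue on log2(value + 1), over genes of at least 1 FPKM in 3 liver libraries or 10 normalized reads in 2 MEF libraries, with Benjamini-Hochberg adjustment over all genes and a threshold of 0.05. The difference of the tissue effects was divided by the root of its summed squared errors (Satterthwaite degrees of freedom). edgeR 4.0.16 and DESeq2 1.42.0 were run on the recovered reads. The fits were also run on simulated data with known changes. That simulation held no deviating library, so it does not bear on calls that turn on G2A liver 3 or MEF WT 3. The 10 members, the lists of 8 regulators and 41 further targets and the marker lists were chosen with earlier results of these data known. All members and regulators are named, and of the further targets up to 3 per tissue and direction with the smallest p. No column matched the third G2A MEF sample, which was not analysed here. Alternatives changed the pseudocount, filter, scaling, variance trend, library weights, replicate block and each library in turn.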

Additional observations from a re-analysis of the deposited data

Results flagged for a closer look

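A test of the difference itself called the G2A effect different between fetal liver and MEFs for 2 members and 2 further targets. The differences of the log2 fold changes, liver minus MEF, were -1.24 for Nqo1, 1.09 for Me1, -0.79 for Sod1 and 1.02 for Ephx1. Nqo1 and Sod1 had opposite signs in the tissues (-0.43 and 0.81, -0.21 and 0.58 in liver and MEFs). Ephx1 was at -0.80 in MEFs and at 0.22 in liver, where its sign is not settled. Its liver groups overlapped at low values (WT 1.95 to 3.18 FPKM, G2A 2.76 to 3.76 FPKM). The confidence interval of its liver log2 fold change, -0.19 to 0.62, included 0. Me1 was above 0 in both tissues (1.51 and 0.42). These calls depend on the processing: Nqo1 was called in 10 of 19 alternatives, Me1 in 9 of 19, Sod1 in 13 of 19 and Ephx1 in 6 of 18, while their signs held in all of them. The liver and MEF values have different units and were made separately, so the tests set only effects within a tissue against each other.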

How the results depend on the processing

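Me1, Hmox1, Osgin1, Nqo1, Gclc, Gclm, Gsr and G6pdx kept their sign in liver under all 14 alternatives, and Nqo1, Me1, G6pdx, Srxn1, Gclm, Gclc and Gsr kept theirs in MEFs under all 15. In liver 9 members and 20 of 41 further pathway genes were called with library weights, beside 46.8% of all genes. When each library was left out in turn, 0 to 9 and 0 to 14 were called, beside 0.0155% to 24.4% of all genes. In MEFs 5 members and 18 of 41 pathway genes were called with library weights (46.3% of all genes), and 2 and 5 by DESeq2 (7.72%). When each WT library was left out, 0 to 3 and 0 to 11 were called (0% to 23.2%). Where a G2A library is left out, the lone remaining one is assumed to vary like the others. When each liver or WT MEF library was left out, the difference between the tissues was called for 0 to 5 members (0.102% to 30.1% of all genes). It was called for 0 members with no filter on low values (0.183%), 0 with no variance trend (0.176%) and 8 with library weights (56.9%). Sod1 and Ephx1 lost that call with no filter or no variance trend, and Ephx1 also with the pseudocount of 0.1 or quantile normalization; the stricter filter removed Ephx1. Over all genes, library weights raised the calls from 3 to 3376 higher and 2681 lower in liver and from 0 to 3149 and 2975 in MEFs. The cause of these shifts was not tested. The replicate block called 0 members in liver, where it called 1 gene higher and 1 lower. It called 3 members and 11 of 41 pathway genes in MEFs (28% of all genes), where only numbers 1 and 2 occur in both genotypes and WT 3 therefore does not bear on the effect, and 5 members for the difference (34.1% of all genes). The numbers are not shown to pair the samples. Deviations of same-numbered samples correlated at 0.18, -0.10 and 0.10 in liver. WT livers 1 and 3 correlated best with the G2A liver of their own number, and WT liver 2 with G2A liver 3 (0.13). In MEFs the values were 0.13 and -0.03, where the deviations of the 2 G2A libraries mirror each other. The labels call the livers littermate pairs, and these correlations do not decide which livers form a pair. For the MEFs they do not decide whether the libraries are paired. The liver depth is unknown.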
